A study of Mus musculus with 8 samples.

Results

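The transcripts described here are those of the JAK kinases Jak1, Jak2 and Jak3, the transcription factors Stat3, Stat5a, Stat5b and Stat6, and the feedback inhibitors Cish, Socs2 and Socs3. Every probe set annotated to 1 of these 10 genes was taken, which gave 28 of the 45101 probe sets on the array. Of these, 26 carry a single gene symbol and 2 are annotated to both Jak3 and Insl3, a gene that overlaps the end of Jak3. The measured samples were RNA of exosomes, small vesicles collected from the culture medium of MC/9, a mouse mast cell line, and RNA of the MC/9 cells themselves, with 4 Affymetrix Mouse430_2 arrays in each group, which the labels call biological replicates. The exosome group is the pellet of the culture supernatant after spins at 500 g and 23000 g, a 0.22 µm filter and a final ultracentrifugation. Both groups come from this 1 line, grown with 10% fetal bovine serum and 10% of a rat T cell culture supplement that contains concanavalin A, and the labels name no further treatment or genetic change in either. Both groups span 2 hybridisation dates, called batch 1 (replicates 1 and 2) and batch 2 (replicates 3 and 4) here.

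Cytokine receptors without a kinase of their own bind JAKs, which phosphorylate the receptor and then the STAT proteins. Phosphorylated STATs pair, enter the nucleus and switch on genes, among them those of CIS and the SOCS proteins, which bind back to the receptor or the JAK and close the loop. In mast cells interleukin 3 acts through Jak2 and Stat5, and interleukin 4 through Jak1, Jak3 and Stat6, and Stat5 is needed for mast cells to develop and survive.

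Among the members, the feedback inhibitor genes are known as STAT targets, so the promoters of all members were searched for the STAT motif TTCNNNGAA, which reads the same on both strands. RefSeq windows of 300 bases (250 before and 50 after an annotated transcript start, GRCm38.p6) were at hand for all genes but Socs2, which was not searched, in 11 windows. Some of these starts, that of Socs3 among them, lie inside the annotated gene rather than at its first base. The motif was in 2 of these windows, those of Cish and Socs3, and in 8.3% of all 32851 windows. The Cish window, chr9:107296409-107296708 on the plus strand, holds 2 motifs, which begin at the transcript start and 11 bases after it, and 0.457% of all windows hold 2 or more. The Socs3 window, chr11:117969317-117969616 on the minus strand, holds 1 motif, at position -154 from that transcript start. These 2 windows are shown because they carry the motif, which is in capitals. A match describes the sequence and does not show that a STAT binds it.
Cish: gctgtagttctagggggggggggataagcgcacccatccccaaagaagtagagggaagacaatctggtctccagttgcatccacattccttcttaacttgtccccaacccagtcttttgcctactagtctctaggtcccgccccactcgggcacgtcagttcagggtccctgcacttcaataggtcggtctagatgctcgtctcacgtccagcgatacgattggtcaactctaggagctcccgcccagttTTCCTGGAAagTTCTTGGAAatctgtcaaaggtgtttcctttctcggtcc
Socs3: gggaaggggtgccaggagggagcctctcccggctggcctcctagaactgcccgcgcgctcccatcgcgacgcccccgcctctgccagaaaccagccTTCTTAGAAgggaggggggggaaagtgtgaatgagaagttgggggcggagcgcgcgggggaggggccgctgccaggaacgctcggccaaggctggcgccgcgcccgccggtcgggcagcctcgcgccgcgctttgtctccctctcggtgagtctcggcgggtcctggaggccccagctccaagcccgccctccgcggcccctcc

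All 10 genes had a probe set above the detection floor on every cell array, and few readings of any member passed it in exosomes. A detection floor was set on each array at the 95th percentile of 150 probe sets of sensory receptor, keratin-associated and beta-defensin genes, which mast cells are not known to use. By its definition 5% of that background list lies above it. Of the 26 member probe sets, 21 (80.8%) passed it on each of the 4 cell arrays, against 40.1% of all probe sets, and each of the 10 genes was among them. On exosome arrays, 20 of the 26 were above the floor on no array, 5 on 1 array and 1 on 2 arrays. That is 7 of 104 readings, or 6.73%, where all probe sets gave 6.1%. No member was above the floor on 3 or 4 exosome arrays.

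The floor itself differed between the groups and limits what can be read. It averaged 282 ± 38.8 for exosomes and 13.2 ± 2.54 for cells (SD, n = 4 each), on deposited values with the same trimmed mean on every array. Spiked control transcripts also read higher in exosomes, the hybridisation controls by a log2 difference of 4.51 and the poly-A controls, which go into the RNA before labelling, by 3.63. The Gapdh control probe sets gave a 3′ to 5′ signal ratio of 2.67 to 4.15 on exosome arrays and 0.811 to 1.20 on cell arrays, and its part in the results below was not tested. For only 6 member probe sets did all 4 cell signals exceed the highest exosome floor. They belong to Jak1 (2 of them), Jak2, Stat3 (2) and Stat6. For the other 20 of the 26, a signal like that of the cells on at least 1 array would not have passed every exosome floor. Precision is limited by the 4 arrays per group.

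Mast cell markers were abundant in the cells. Of the 13 marker genes named on the array, 11 passed the floor on every cell array, while Tpsab1 and Mcpt4 did not, and 5 passed it on any exosome array. The summed signal of the 13 ranged from 1557 to 2406 in exosomes and from 47860 to 52130 in cells. Of 9 T cell markers, 6 were above it on no cell array. In exosomes 8 of those 9, Cd3d, Cd3e and Cd3g among them, were above the floor on no array, while Zap70, a T cell kinase, was above it on all 4 at a mean of 524, against 28.8 in cells. The summed signal of these 9 ranged between 1035 and 1159 in exosomes, against 39.3 to 91.4 in cells. Lists of B cell, macrophage and fibroblast markers also summed higher in exosomes. The sums were 270 to 498 in exosomes and 7.03 to 13.1 in cells for 3 B cell markers. For 6 macrophage markers they were 546 to 827 in exosomes and 83.4 to 98.4 in cells. For 4 fibroblast markers they were 361 to 592 in exosomes and 15.7 to 27.55 in cells. Of these 13 genes, 2 passed the floor on any exosome array. On the cell arrays, 2 of the 6 macrophage markers, Csf1r and Cd14, were above the floor on all 4, and 3 were above it on none. All 3 B cell markers and 3 of the 4 fibroblast markers were above it on no cell array. The sums overlapped for 3 erythroid markers (127.5 to 281.7 in exosomes, 97.94 to 152.5 in cells). They also overlapped for 1 basophil marker (9.199 to 100.7 in exosomes, 1.296 to 39.81 in cells). The background list had a mean median of 69.45 on exosome arrays and 2.418 on cell arrays. The part of this background in the sums was not tested. The part of RNA from other cells in the results was not tested.

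**Figure D1:**
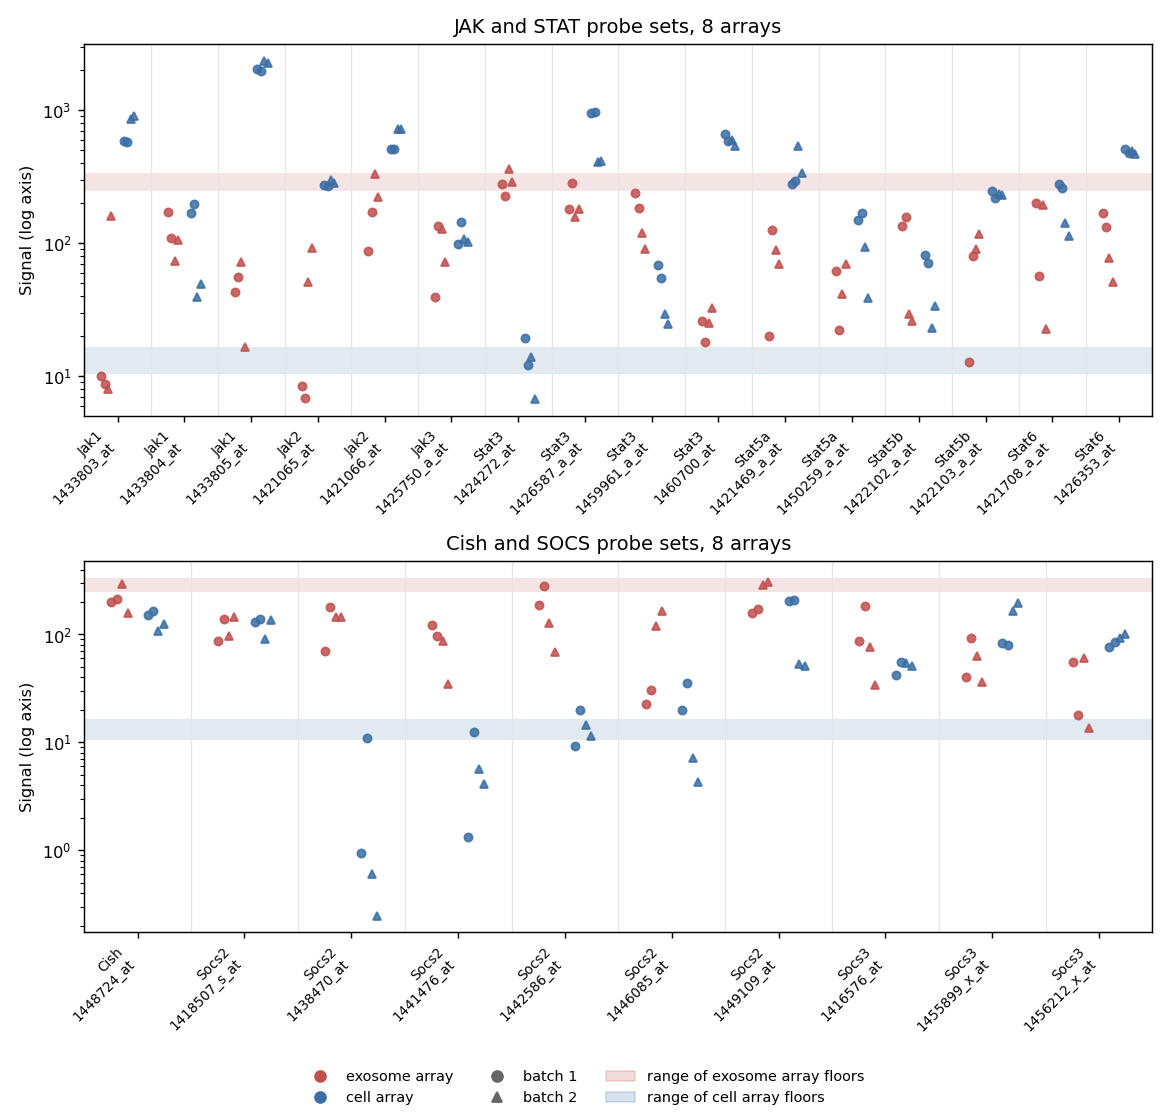
Signal of each single-symbol member probe set (log axis) on the 4 exosome arrays (red, left) and the 4 cell arrays (blue, right), with circles for batch 1 and triangles for batch 2. The shaded bands are the ranges of the detection floors, between 246 and 336 (exosomes) and between 10.5 and 16.5 (cells). The red points lie almost all under the red band.

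The groups were compared with limma across the 20219 probe sets above the floor on at least 3 arrays of a group, and 21 single-symbol member probe sets entered the test. All 21 entered through the cell arrays, so a bias towards lower exosome values is built into the counts that follow. On the deposited scaling 10 of the 21 were lower in exosomes, and the share of all tested probe sets called lower was 37.5%. Another 1 was higher, where 17.9% of all tested probe sets were called higher, and 10 did not pass. The median log2 difference was -1.10 for the 21 members and -0.69 for all tested probe sets. The shares and the median of all tested probe sets allow entry through either group, so they are not matched to the members. With a stricter 99th-percentile floor they were 44.1% lower, 10.1% higher and -1.12. The member values stayed at 10 lower, 1 higher and -1.10. In bulk RNA, fewer vesicles with a transcript and fewer copies in each vesicle cannot be told apart.

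Of the 5 probe sets of the kinases Jak1 and Jak2, 4 fell. Jak1, the kinase shared by many cytokine and interferon receptors, read 42.7, 55.7, 72.7 and 16.8 on exosome arrays 1 to 4 and 2045, 1977, 2344 and 2267 on cell arrays 1 to 4 with probe set 1433805_at. Every cell signal was far above every exosome signal, and no exosome signal reached the floor. The difference was -5.55 on the log2(signal + 4) scale (SE 0.40, adjusted p = 3.04e-06), with -5.85 within batch 2 and -5.25 within batch 1. The signal of this probe set was at least 7.68-fold lower in exosomes when exosome signals are taken at the floor.

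A second Jak1 probe set, 1433803_at, read 9.99, 8.77, 8.10 and 159 on exosome arrays and 585, 576, 864 and 906 on cell arrays. The groups did not overlap, although exosome array 4 stood far above the other three. It was lower by a log2 difference of -4.89 (SE 0.76, adjusted p = 0.000335) and at least 2.56-fold lower by the bound. It did not pass within batch 2 alone, where the difference was -4.32. The third, 1433804_at, read 173, 109, 73.1 and 105 on exosome arrays and 168, 198, 39.4 and 49.4 on cell arrays. Its groups overlapped, all 8 signals were under the lowest exosome floor, and the difference of 0.27 did not pass (95% interval -0.99 to 1.52, adjusted p = 0.71).

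Jak2, the kinase of the interleukin 3, interleukin 5 and erythropoietin receptors, had 2 probe sets. With 1421066_at it read 86.7, 172, 333 and 225 on exosome arrays and 509, 507, 722 and 727 on cell arrays. Exosome array 3 was above its floor, at a signal below that of every cell array. The difference was -1.70 (SE 0.41, adjusted p = 0.00469), and with quantile normalization it was -1.12 and did not pass.

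With 1421065_at the Jak2 signals were 8.52, 6.85, 50.8 and 92.7 on exosome arrays and 276, 268, 297 and 284 on cell arrays. The groups did not overlap and the difference was -3.29 (SE 0.68, adjusted p = 0.00194). The cell signals lay within the range of the exosome floors, so the bound on the fold was about 1, and the call ended once signals below the floor were raised to it (-0.0032).

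Jak3, which works with the common gamma chain of the interleukin 2 and interleukin 4 receptors, showed no difference that passed. Its single-symbol probe set read 39.6, 135, 128 and 72.7 on exosome arrays and 98.1, 144, 108 and 103 on cell arrays, all under the exosome floors, with a difference of -0.39 (95% interval -1.39 to 0.61, adjusted p = 0.49). Of the 2 probe sets annotated to both Jak3 and Insl3, 1423021_s_at read 208, 477, 140.0 and 22.6 on exosome arrays and 95.7, 86.3, 133 and 119 on cell arrays and did not pass (0.34, adjusted p = 0.71). The other, 1427092_at, read 241, 311, 127 and 15.5 on exosome arrays and 0.572, 4.66, 0.674 and 0.279 on cell arrays, above the floor on exosome array 2 alone, and was not tested. These 2 cannot be assigned to either gene.

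**Figure D2:**
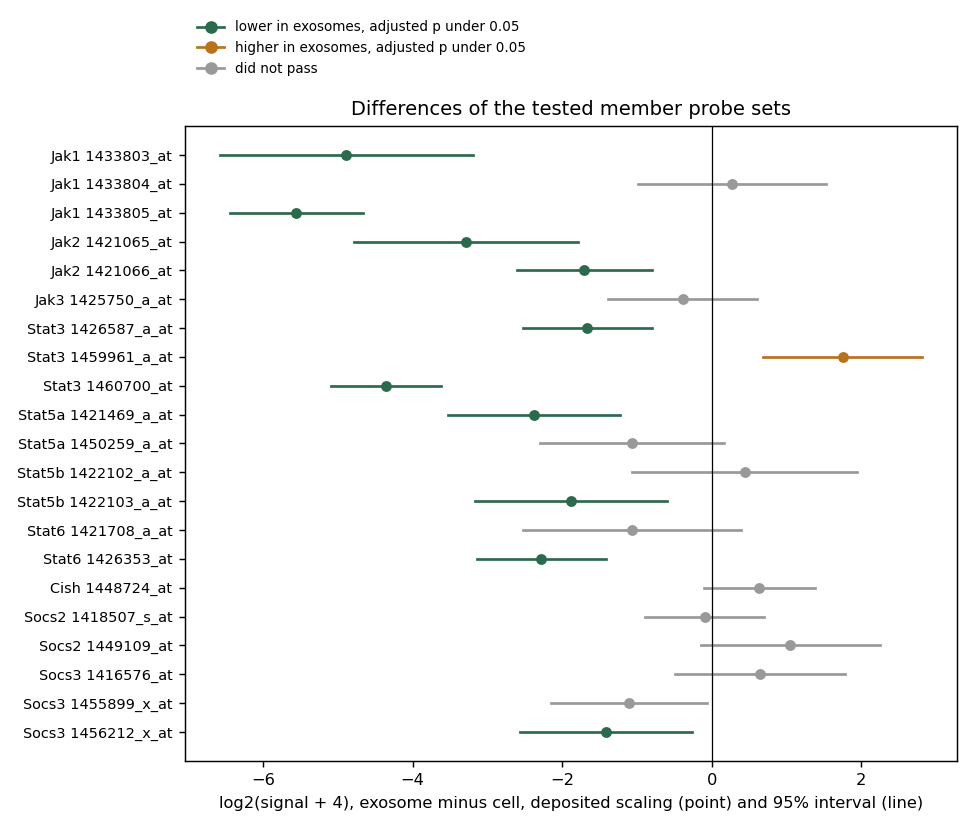
Difference between exosome and cell arrays on the log2(signal + 4) scale, deposited scaling, for the 21 tested member probe sets, with 95% intervals from limma. The 10 green probe sets were lower in exosomes (-5.55 to -1.41), the orange Stat3 probe set was higher (1.75), and the 10 grey ones did not pass.

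The STAT factors each had a probe set that fell. Stat3 also had 1 that was higher on the deposited scaling and lower after scaling to the hybridisation controls. Stat3, the factor of interleukin 6 and interleukin 10 signalling, read 25.9, 18.2, 25.1 and 32.8 on exosome arrays and 661, 588, 593 and 536 on cell arrays with 1460700_at. No exosome signal came near any cell signal. The difference was -4.36 (SE 0.33, adjusted p = 3.83e-06), -4.12 in batch 2 and -4.61 in batch 1. The signal of this probe set was at least 2.11-fold lower by the bound.

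With 1426587_a_at Stat3 read 182, 282, 158 and 180.0 on exosome arrays and 951, 974, 409 and 412 on cell arrays. The groups did not overlap, and exosome array 2 passed its floor of 282 by less than 1 unit. The difference was -1.67 (SE 0.39, adjusted p = 0.00414), and it was -1.20 and did not pass with quantile normalization.

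The single member call in the other direction was Stat3 1459961_a_at, which read 239.8, 185, 119 and 90.3 on exosome arrays and 68.9, 55.2, 29.4 and 24.9 on cell arrays. It was higher in exosomes by 1.75 (SE 0.48, adjusted p = 0.00991), yet no exosome signal reached its floor. Scaling to the hybridisation controls (-2.04) or the poly-A controls (-1.48) turned the sign, and the call was lost with quantile normalization (0.52) and with the background median subtracted (0.73). A further Stat3 probe set, 1424272_at, read 278, 228, 362 and 287 on exosome arrays and 19.5, 12.2, 14.1 and 6.79 on cell arrays. It was above the floor on exosome arrays 1 and 3 and on cell arrays 1 and 3, too few to be tested, and no other member passed the floor on more than 1 exosome array.

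Stat5a and Stat5b, near-identical factors activated by interleukin 3 and encoded side by side, can share probe binding, so their values may not be independent. Stat5a with 1421469_a_at read 20.2, 125, 89.0 and 69.7 on exosome arrays and 278, 294, 542 and 338 on cell arrays. The groups did not overlap, and the difference was -2.38 (SE 0.52, adjusted p = 0.00276), at least 1.25-fold lower. It did not pass within batch 1 alone (-2.37) or with signals below the floor raised to it (-0.32). Its other probe set, 1450259_a_at, read 62.0, 22.4, 41.7 and 69.6 on exosome arrays and 149, 170, 94.5 and 38.5 on cell arrays and did not pass (-1.06, 95% interval -2.29 to 0.17, adjusted p = 0.13).

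Stat5b with 1422103_a_at read 12.8, 80.7, 91.0 and 118 on exosome arrays and 245, 218, 234 and 229 on cell arrays. It was lower by a log2 difference of -1.88 (SE 0.58, adjusted p = 0.0178), but all 4 cell signals lay under the lowest exosome floor, so no bound on the fold can be given, and the sign turned to 0.27 when signals below the floor were raised to it. Within batch 1 alone the difference of -2.64 did not pass. With 1422102_a_at it read 134, 157, 29.6 and 25.8 on exosome arrays and 81.3, 71.2, 23.2 and 33.8 on cell arrays. In both groups batch 2 was the lower one, and the difference of 0.44 did not pass (95% interval -1.06 to 1.94, adjusted p = 0.61).

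Stat6, the factor of interleukin 4 signalling, read 168, 132, 78.1 and 51.3 on exosome arrays and 512, 475, 496 and 470.4 on cell arrays with 1426353_at. The cell arrays were close together and all above the exosome arrays. The difference was -2.28 (SE 0.39, adjusted p = 0.000608), -2.85 in batch 2 and -1.70 in batch 1, and at least 1.74-fold by the bound. With 1421708_a_at it read 202, 56.6, 194 and 22.9 on exosome arrays and 279, 259, 141 and 114 on cell arrays, which overlapped and did not pass (-1.07, 95% interval -2.53 to 0.40, adjusted p = 0.19).

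Of the 6 tested probe sets of the feedback inhibitors, 1, of Socs3, was lower in exosomes on the deposited scaling and 5 did not pass. Their cell signals all lay under every exosome floor. Cish, the inhibitor whose promoter window holds 2 motifs, read 202, 215, 294 and 159 on exosome arrays and 149.9, 164, 108 and 126 on cell arrays. Exosome array 3 was above its floor, and exosome array 4 lay within the range of the cell arrays. The difference of 0.63 did not pass (95% interval -0.11 to 1.38, adjusted p = 0.13), while after scaling to the hybridisation controls it was -3.36 (adjusted p = 7.96e-07).

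Socs2, which restrains growth hormone signalling, had 6 probe sets, of which 2 were above the floor on every cell array, 2 on 2 cell arrays and 2 on none. With 1449109_at it read 159, 171, 285 and 308 on exosome arrays and 204, 211, 52.9 and 51.2 on cell arrays. The arrays of batch 2 were above those of batch 1 in exosomes and below them in cells, so that the difference was 2.42 in batch 2 and -0.32 in batch 1, and the pooled 1.05 did not pass (95% interval -0.15 to 2.25, adjusted p = 0.12). With 1418507_s_at it read 86.5, 139, 97.3 and 147 on exosome arrays and 131, 138, 91.5 and 136 on cell arrays, with a difference of -0.09 (95% interval -0.89 to 0.70, adjusted p = 0.84). The remaining 4, 1438470_at, 1441476_at, 1442586_at and 1446085_at, ranged from 22.5 to 283 on exosome arrays and from 0.248 to 35.2 on cell arrays and were not tested. A single one of their 16 exosome readings, 283 for 1442586_at on array 2, was above the floor.

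Socs3, an inhibitor of JAK kinase activity that acts on interleukin 6 signalling, had 3 probe sets. With 1456212_x_at it read 55.7, 17.9, 59.9 and 13.5 on exosome arrays and 77.3, 85.1, 93.7 and 100.3 on cell arrays. The groups did not overlap and the difference was -1.41 (SE 0.52, adjusted p = 0.0395). This call sat at the threshold: it was lost without exosome replicate 2 (-1.19) or 4 (-1.08), without any 1 of the cell replicates (-1.48 to -1.36), within either batch and with the replicate block, and the adjusted p over its alternatives ran from 4.13e-08 to 0.19. With signals below the floor raised to it the probe set was called in the opposite direction (1.62, adjusted p = 1.72e-06).

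With 1455899_x_at Socs3 read 40.3, 91.96, 62.9 and 36.6 on exosome arrays and 83.4, 80.5, 165 and 194 on cell arrays, with an overlap and a difference of -1.10 that did not pass (adjusted p = 0.068). With 1416576_at it read 87.3, 185, 75.8 and 34.0 on exosome arrays and 41.8, 56.0, 54.2 and 50.7 on cell arrays, a difference of 0.64 that did not pass either (adjusted p = 0.31). The suffix x marks probe sets with probes that can bind other transcripts, s those shared by several genes, and a those that recognise alternative transcripts of 1 gene.

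The direction of the members depended on how the arrays were scaled. After scaling to the hybridisation controls, which makes those controls read alike in both groups, all 21 tested members were lower in exosomes, where 94.5% of all tested probe sets were. With the poly-A controls 20 members were lower, where 81.5% of all tested probe sets were. The median of all tested probe sets moved with them, to -3.83 with the hybridisation controls and -3.36 with the poly-A controls. Relative to that median, Jak1 1433805_at and 1433803_at lay lower, at -8.45 and -7.10 with the hybridisation controls, while 7 of the 21 lay above it. These were Stat3 1459961_a_at at -2.04, Stat5b 1422102_a_at at -2.70, Socs3 1416576_at at -2.72, Socs2 1449109_at at -3.00, Cish at -3.36, the third Jak1 probe set 1433804_at at -3.39 and Socs2 1418507_s_at at -3.79. The largest falls under this scaling were those of Jak1 and of Stat3 1460700_at (-6.87), which were also the largest falls as deposited.

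**Figure D3:**
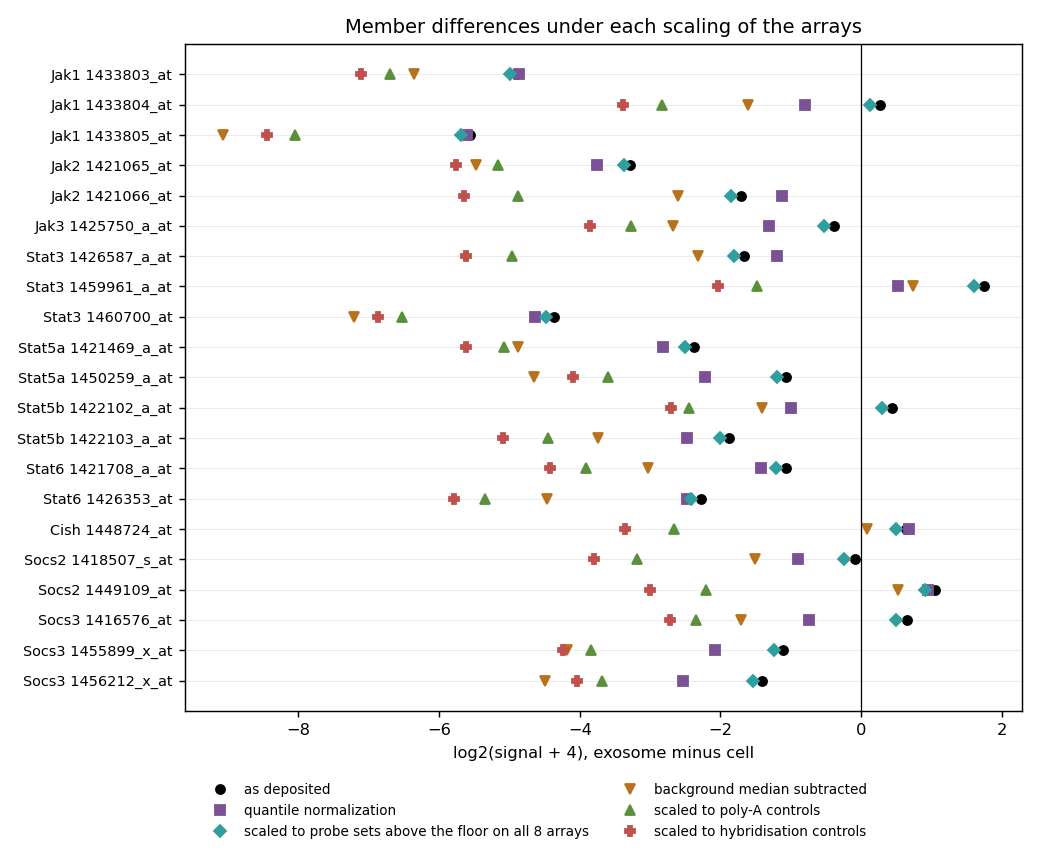
Difference between exosome and cell arrays (log2(signal + 4)) for each tested member probe set under 6 scalings. The black points are the deposited scaling, and the red crosses, for the hybridisation controls, lie to the left of 0 for all 21 probe sets (-8.45 to -2.04).

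Within the cells, members differed between hybridisation batches. Of the 21 member probe sets detected on every cell array, 8 differed at least 2-fold between batches with no overlap, where 12.4% of the 18067 such probe sets on the array did. This count was taken after the values were seen, each batch has 2 cell arrays, and it is a description with no test. Of the 8 members, 7 were lower in batch 2 and 1 was higher, and over all probe sets 2017 of 2241 were lower. Socs2 1449109_at averaged 52.0 in batch 2 and 207 in batch 1, a log2 difference of -1.92, and Jak1 1433804_at averaged 44.4 in batch 2 and 183 in batch 1, a difference of -1.95. Socs3 1455899_x_at was the higher one, at 179.5 in batch 2 and 81.9 in batch 1 (1.09).

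The other Socs2, Jak1 and Socs3 probe sets that were detected on every cell array differed less than 2-fold between the batches. Stat3 averaged 410.3 in batch 2 and 963 in batch 1 with 1426587_a_at (-1.22). With 1459961_a_at it averaged 27.2 in batch 2 and 62.0 in batch 1 (-1.08), also without overlap. With 1460700_at, whose arrays overlapped, it averaged 564 in batch 2 and 624 in batch 1 (-0.14). Likewise Stat5b differed by -1.32 with 1422102_a_at and by 0.002 with 1422103_a_at, and Stat6 by -1.06 with 1421708_a_at and by -0.03 with 1426353_at. Jak1 gave 0.60 with 1433803_at and 0.20 with 1433805_at. For Stat5a the 2 probe sets gave -1.33 and 0.58. On the cell arrays the poly-A controls averaged 18.8 and 35.7 in batch 2 and 124 and 133 in batch 1, and the Gapdh 3′ to 5′ ratio was 0.979 and 1.20 in batch 2 and 0.853 and 0.811 in batch 1. Their part in these differences was not tested.

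**Figure D4:**
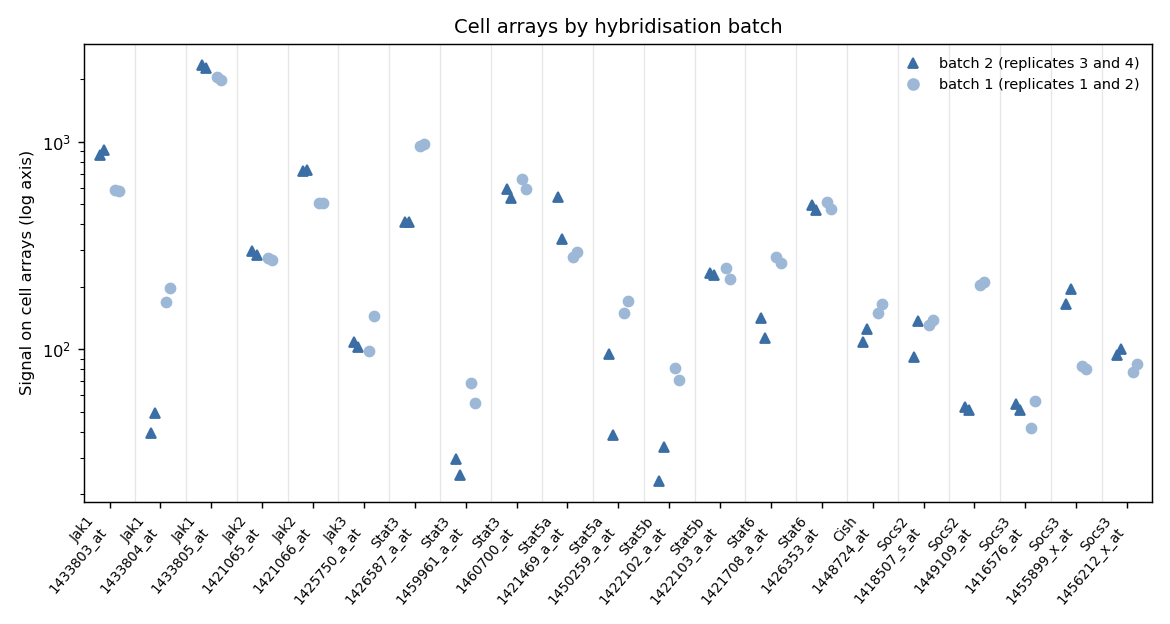
Signal (log axis) of the 21 member probe sets detected on every cell array, with batch 2 (triangles, left) beside batch 1 (circles, right). Socs2 1449109_at, Jak1 1433804_at and Stat3 1426587_a_at are lower in batch 2, while Stat3 1460700_at and Stat6 1426353_at are nearly level.

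The other genes of the pathway, in 6 lists, also fell more often than they rose on the deposited scaling. Of 59 tested genes, each by the probe set with the highest mean cell signal, 31 were lower in exosomes, 4 were higher and 24 did not pass, with a median log2 difference of -1.67. The shares of all tested probe sets are those given above for the members, and choosing by cell signal favours a lower exosome value. All 59 also entered the test through the cell arrays, so a bias towards falls is built into these counts. The lists have 74 genes on the array, and those not tested are outside the counts. Some of them read higher on every exosome array than on any cell array, and the rest overlapped. Il6ra, for example, averaged 218 in exosomes, under every exosome floor, and 5.70 in cells. Of the 59, 42 were not detected on any exosome array and 1, the cyclin Ccnd2, was on all 4, at 2132 ± 716 in exosomes and 6997 ± 319 in cells (SD, n = 4 each), named after its value was seen. Detection in exosomes was rare across the whole array too, where 1.44% of probe sets were detected in all 4 samples. The array-wide share detected in none of them was not computed, so low detection cannot be read as particular to these genes.

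Upstream of the members, 9 of 14 tested receptor genes were lower, 1 was higher and 4 did not pass. Csf2rb2, the beta subunit of the mouse interleukin 3 receptor, read 212, 338, 10.0 and 208 on exosome arrays and 3293, 3644, 3828 and 4751 on cell arrays, a difference of -4.98 (adjusted p = 0.000489). Il5ra, the interleukin 5 receptor chain, was at least 5.22-fold lower, at 86.3 ± 57.2 in exosomes and 1469 ± 161 in cells (SD, n = 4; limma, adjusted p = 2.49e-05). The rise was that of Ifngr2, an interferon gamma receptor chain, with 226, 137, 275 and 61.4 on exosome arrays and 19.2, 29.9, 24.6 and 28.7 on cell arrays. It passed the floor on 1 exosome array. The difference was 2.41 (limma, adjusted p = 0.00231) as deposited and -1.35 after scaling to the hybridisation controls.

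Among the remaining kinases and factors, 1 of 3 tested genes was lower and none rose: Stat4, the factor of interleukin 12 signalling, at 13.3 ± 10.6 in exosomes and 242 ± 72.7 in cells (SD, n = 4; difference -3.98, limma, adjusted p = 0.000116). Its cell signals on arrays 3 and 4 lay under every exosome floor, no bound on the fold can be given, and the sign turned to 0.26 when signals below the floor were raised to it. Of 4 tested SOCS genes outside the members, Socs4 (-3.70) and Socs7 (-2.47) fell and 2 did not pass. Neither fall has a bound, and with signals raised to the floor the differences were 0.29 for Socs4 and 0.32 for Socs7. Of 12 further negative regulators, 7 fell and none rose. Ptprc, the phosphatase CD45, was at least 5.51-fold lower, at 64.2 ± 18.5 in exosomes and 1555 ± 208 in cells, and Ptpn6, the phosphatase SHP-1, was at least 1.52-fold lower, at 22.3 ± 15.3 in exosomes and 436 ± 95.6 in cells (SD, n = 4; limma, adjusted p = 2.73e-06 for Ptprc and 4.30e-05 for Ptpn6).

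Of 11 signalling partners, 5 fell, 1 rose and 5 did not pass. Gab2, an adaptor of growth factor and IgE receptors, was at least 3.59-fold lower (24.8 ± 9.75 in exosomes and 1012 ± 117 in cells, SD, n = 4; limma, adjusted p = 2.59e-06), and Sos1, which activates Ras, at least 1.25-fold. The rise was in Sh2b2, an adaptor protein named after its value was seen, by 1.77, with overlapping groups and no exosome signal above the floor, and -1.64 after scaling to the hybridisation controls. Of 15 tested genes known as STAT targets, 7 fell, 2 rose and 6 did not pass.

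Mcl1, a survival protein, was the target with a bound of at least 4.26-fold, at 135 ± 61.9 in exosomes and 1202 ± 159 in cells (SD, n = 4; limma, adjusted p = 6.18e-05), and Cdkn1a, a cell cycle inhibitor, was at least 2.57-fold lower. The 2 rises were Pim2, a survival kinase, by 1.47 and Bcl6, a transcriptional repressor, by 2.36. Both were above the floor on 1 exosome array, and their differences after scaling to the hybridisation controls were -2.59 for Pim2 and -1.64 for Bcl6. Under that scaling 0 of the 59 genes had a positive difference, and 2.13% of all tested probe sets had one.

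**Figure D5:**
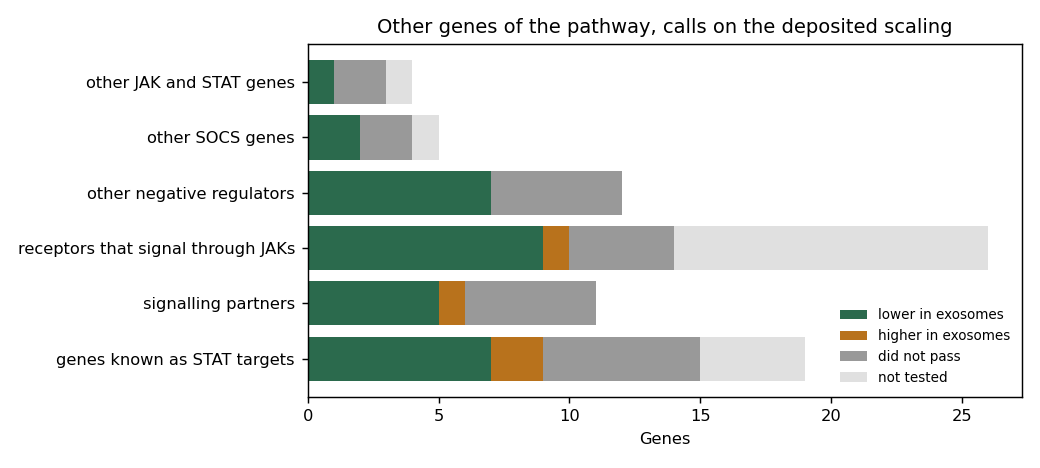
Number of genes in each list of other pathway genes that were lower in exosomes, higher in exosomes, did not pass or were not tested, on the deposited scaling. Lower calls outnumber higher calls in all 6 lists, with 31 against 4 in total. All tested genes entered through the cell arrays, which favours lower calls.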

How the data were processed

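RNA of 4 exosome and 4 MC/9 cell samples was measured on Mouse430_2 arrays, from 5 µg of total RNA each, per the labels' protocols. The authors deposited 1 linear intensity per probe set and array, made with GCOS, per the submitters' processing notes. How probes were summarised is not given in the sources used here. Each deposited array has a 2% trimmed mean of 100.

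Names come from the platform annotation, and all 26 single-symbol member probe sets matched a RefSeq gene. A probe set was tested if above the floor (95th percentile of the background list) on at least 3 of 4 arrays of a group. Groups were compared on log2(signal + 4) by lmFit and eBayes (trend on) of limma 3.58.1, run in R 4.3.3, Benjamini-Hochberg adjusted over 20219 probe sets at a threshold of 0.05. The added 4 makes the differences of dim probe sets smaller. The main fit does not remove the higher background of the exosome arrays (mean median 69.45, against 2.418 on cell arrays). Rises of dim probe sets may therefore be overstated. With no filter on dim probe sets, the median log2 difference of 45037 probe sets was 2.003. "At least N-fold" is the geometric mean of the cell signals over that of, per exosome array, the higher of floor and signal. Levels of different probe sets were not compared.

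The text names all 10 members and, per list, up to 2 falls and 2 rises whose groups do not overlap. The members and lists were chosen with earlier results of these data known. The alternatives were 5 other scalings, 2 other pseudocounts, other floors and filters, batch and replicate as blocks, single batches and each array left out. Whether replicates were cultured separately is not stated, and the p-values measure the spread between these samples, which may be technical. Protein sequences were not used here.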

Additional observations from a re-analysis of the deposited data

Results flagged for a closer look

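Among the 42 sets of 4 arrays examined for the members (21 probe sets, each in exosomes and in cells), 2 held an array whose gap to its nearest neighbour divided by the whole range exceeded Dixon's critical value, where chance flags about 1 in 20. For Jak1 1433803_at, exosome array 4 read 159, against 8.10 to 9.99 on the other exosome arrays, and all 4 were under the floor. For Socs2 1418507_s_at, cell array 3 read 91.5, against 131 to 138 on the other cell arrays.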

How the results depend on the processing

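On the deposited scaling 10 member probe sets were lower and 1 was higher in exosomes. After scaling to the hybridisation controls the counts were 21 and 0, with the poly-A controls 20 and 0, and with quantile normalization or the background median subtracted 0 were higher. With signals below the floor raised to it they were 6 and 11, since the exosome floors exceed many cell signals. Within batch 2, 2 were higher, and with no filter on dim probe sets 6 were. With the replicate block 9 were lower and 1 higher, and the call lost was Socs3 1456212_x_at. For exosome and cell arrays of the same number, the correlations of deviations from the group means were -0.074 to 0.0084. Between 3.395% and 8.557% of probe sets passed the floor on an exosome array, so these correlations cannot show whether the numbers are pairs. The main fit did not take them as pairs. Leaving out 1 array gave 9 or 10 lower and 1 higher. Of all tested probe sets 7585 were lower and 3616 higher as deposited, 9654 and 1482 with quantile normalization, 10939 and 1570 with the background subtracted, 19107 and 253 with the hybridisation controls, 16485 and 293 with the poly-A controls, and 4125 and 13673 with the floor set. With no filter they were 8085 and 26587, and with the floor at the 99th percentile 7527 and 1723. Of 441 single differences recomputed, 364 kept direction and side of the threshold, 18 lost and 26 gained a call in the same direction, and 33 changed sign, 2 of these for probe sets called lower. The causes were not tested. The fits without the trend and with batch or replicate as a block leave each difference unchanged by design. They could move a call but not a direction, so part of the differences that kept direction could not have changed it.

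Differences that changed sign were as follows. Scaled to the hybridisation controls: Cish -3.36, Jak1 1433804_at -3.39, Socs2 1449109_at -3.00, Socs3 1416576_at -2.72, Stat3 1459961_a_at -2.04 and Stat5b 1422102_a_at -2.70. Scaled to the poly-A controls the same probe sets gave -2.66, -2.83, -2.20, -2.35, -1.48 and -2.44. Jak1 1433804_at, Socs3 1416576_at and Stat5b 1422102_a_at gave -1.61, -1.71 and -1.41 with the background subtracted and -0.80, -0.74 and -0.999 with quantile normalization. With signals set to the floor Jak3 gave 1.30, Socs2 1418507_s_at 1.17, Socs3 1455899_x_at 1.18 and 1456212_x_at 1.62, Stat5a 1450259_a_at 1.47, Stat5b 1422103_a_at 0.27 and Stat6 1421708_a_at 0.59. Within batch 1 Jak1 1433804_at gave -0.40 and Socs2 1449109_at -0.32. Within batch 2 Socs2 1418507_s_at gave 0.094, Socs3 1416576_at -0.036 and Stat5b 1422102_a_at -0.021. Leaving out 1 array gave -0.11 to 0.63 for Jak1 1433804_at and -0.23 to 0.036 for Socs2 1418507_s_at.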
